A study of Mus musculus with 18 samples.

Results

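*Sncg*, *Sncb* and *Sncaip*, the genes of γ-synuclein, β-synuclein and the synuclein partner synphilin-1, were followed in the expression profiles of the subventricular zone (SVZ) of adult mice. They are 3 of the 19057 genes with a probe of their own on the Illumina Mouse WG6-v2 array, and all 5 of their probes were read: 2 for *Sncg*, 1 for *Sncb* and 2 for *Sncaip*. The genes were chosen by the log2 differences of these same arrays between the groups, so those differences are given as a description, without a test. Total RNA came from 9 Tam-Idh1-KI and 9 control mice, 1 array each, on the C57BL6 background. Tam-Idh1-KI mice carried a conditional *Idh1* R132H knockin allele at the native locus and *Nes-Cre* ER(T2), a tamoxifen-dependent Cre under the nestin promoter. Control mice were *Idh1* wild-type, with or without the Cre transgene. Both groups received tamoxifen at 50 mg/kg daily for 5 days from 5 to 6 weeks of age and were 5 to 9 months old when analyzed, with 5 females and 4 males among Tam-Idh1-KI mice and 3 females and 6 males among controls. Nestin marks stem cells, progenitors and niche astrocytes, so neurons that were mature at injection are not its targets, non-induced cells remain in the tissue, and the floxed allele is known to be leaky without Cre in a minority of mice.

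Arrays were hybridised on a first day (6 mice per group, 5 to 6 months old) and a second day (3 per group, 7 to 9 months old). Mice of the second day were thus all older than those of the first, and day and age cannot be told apart. Age was also unbalanced between genotypes, with a median over both days of 5 months in Tam-Idh1-KI and 6 months in control mice. This imbalance lay within the first day, when 5 months was the commoner age of knockin animals and 6 months that of controls. The main model did not hold age. Of all probes, 44.6% to 50.9% were detected on an array. The labelled tissue held 9 of 10 measured neural stem cell genes, 9 of 11 neuroblast genes and 11 of 13 ependymal genes above background. It also held 10 of 10 markers of striatal projection neurons and 8 of 11 of choroid plexus. The adipocyte markers, 7 with a probe, were detected on too few arrays for a test.

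Synucleins are small proteins of neurons, and some members of the family bind the membranes of synaptic vesicles. β-synuclein is found in most forebrain terminals and can slow the aggregation of other synucleins. γ-synuclein is best known from sensory and motor neurons, retinal ganglion cells, subsets of forebrain neurons and fat. Synphilin-1 binds synucleins, is a substrate of the ubiquitin ligases of the Siah and Parkin families and is found in the inclusions of Parkinson disease. 

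The 250 bases before the annotated start of *Sncg*, whose level differed most, and of *Sncb*, its paralog with the brightest probe, are shown 5′ to 3′ for comparison (RefSeq, GRCm38.p6, both on the minus strand, chr14:34374670-34374919 and chr13:54766596-54766845). Capitals mark each CG dinucleotide. Of the 3 genes, 2 were in the promoter table.
Sncg: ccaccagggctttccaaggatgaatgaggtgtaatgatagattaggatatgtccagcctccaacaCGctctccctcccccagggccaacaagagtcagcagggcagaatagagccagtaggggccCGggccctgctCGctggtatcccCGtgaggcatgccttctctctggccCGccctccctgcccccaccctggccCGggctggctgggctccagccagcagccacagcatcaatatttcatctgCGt
Sncb: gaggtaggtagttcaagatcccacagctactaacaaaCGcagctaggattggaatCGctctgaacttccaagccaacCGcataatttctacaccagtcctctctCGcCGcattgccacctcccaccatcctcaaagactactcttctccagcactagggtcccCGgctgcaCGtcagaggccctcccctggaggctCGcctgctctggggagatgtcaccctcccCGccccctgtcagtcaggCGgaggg
The *Sncg* window held 7 CG dinucleotides and 61.6% G or C, and 46.3% of the 32851 promoters of the table held at least as many. The *Sncb* window held 10 CG and 58.8% G or C, and 37.8% of promoters held at least as many. On either strand, GGGCGG, which holds a CG by its own letters, occurred once in each window, and it was found in 32.7% of promoters. CCAAT occurred once in *Sncb* and was not found in *Sncg* (33.8% of promoters), and neither TATAAA (12.4%) nor CACGTG (6.02%) was found in either. Such matches are a description of letters and were not tested as binding sites.

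By its brighter probe and with quantile normalization, *Sncg* was lower in the SVZ of every Tam-Idh1-KI mouse than in any control. Values are log2 normalized signals. The brighter *Sncg* probe, which was detected on all 18 arrays, had a lowest, median and highest level of 6.73, 7.82 and 8.40 in Tam-Idh1-KI mice, against 8.56, 8.81 and 9.17 in control mice. The groups did not overlap, and the highest Tam-Idh1-KI mouse (replicate 7, second day) lay under the lowest control (replicate 5, first day). Of the 11465 genes tested, 4 were lower without overlap (0.0349%) and 0 were higher without overlap. The means were 7.80 ± 0.50 in Tam-Idh1-KI and 8.83 ± 0.21 in control mice (SD, n = 9 each). The log2 difference fitted beside hybridisation day and sex was -1.08 (SE 0.18), a ratio of 0.474 (95% interval 0.367 to 0.614). The tissue was profiled in bulk, so fewer cells that hold *Sncg* and less *Sncg* RNA per cell cannot be told apart.

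The lower *Sncg* level was seen on both days. On the first day the 6 Tam-Idh1-KI mice lay between 6.73 and 8.25 and the 6 controls between 8.56 and 9.17, and the means differed by -1.25. The 3 Tam-Idh1-KI mice of the second day lay between 7.67 and 8.40 and the 3 controls between 8.57 and 8.80, and the means differed by -0.60. The groups did not overlap on either day. Replicate 6 of Tam-Idh1-KI had the lowest level, 6.73, and the spread among Tam-Idh1-KI mice was larger than among controls. Leaving out each array in turn kept the difference between -1.17 and -0.91. With age added to day and sex in the model it was -1.01.

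The separation of the groups depended on scaling. Before normalization the bead signals of this probe were 233, 332 and 750 in Tam-Idh1-KI and 413, 504 and 710 in control mice (lowest, median, highest), and they overlapped. Divided by the median signal of the array, they ran from 1.57 to 3.87 in Tam-Idh1-KI and from 2.97 to 4.18 in control mice. With median scaling in place of quantile normalization, Tam-Idh1-KI mice reached 8.74 and controls began at 8.41, so that the groups overlapped, although the difference was still -0.95. That scaling moved the median of all kept probes by 0.12. The groups stayed apart with cyclic loess, without background correction and in the processed values of the authors.

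The second, dimmer *Sncg* probe went the same way. It had a lowest, median and highest level of 4.88, 5.65 and 6.23 in Tam-Idh1-KI and 5.47, 6.48 and 6.96 in control mice. Here the groups overlapped over all arrays and on the first day, but not on the second, when Tam-Idh1-KI mice lay between 5.52 and 6.23 and controls between 6.34 and 6.96. The log2 difference was -0.74 (SE 0.21), and 9 of 9 Tam-Idh1-KI mice lay under the control mean of their day, as they did for the brighter probe. This probe was near background. It was detected on 8 Tam-Idh1-KI and 9 control arrays. The array without detection, with a detection p-value of 0.182, was again that of replicate 6. After removal of genotype, day and sex, the 2 probes correlated at r = 0.45 over the 18 arrays.

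*Sncb* had the brightest probe of the 3 genes and overlapping groups. Its lowest, median and highest levels were 10.07, 11.20 and 11.83 in Tam-Idh1-KI and 10.51, 11.29 and 11.73 in control mice. The means of 11.05 ± 0.61 in Tam-Idh1-KI and 11.18 ± 0.48 in control mice (SD, n = 9 each) differed by less than the spread within either group. The fitted log2 difference was -0.09 (SE 0.19), a ratio of 0.942 with a 95% interval of 0.716 to 1.24, and 0.02 with median scaling. The days differed in sign, with 0.09 on the first and -0.58 on the second. On the second, the 3 Tam-Idh1-KI levels of 10.07, 10.19 and 10.74 stood beside control levels of 10.60, 10.85 and 11.29. The lowest controls were replicate 1 of the first day and replicate 9 of the second.

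*Sncaip* was slightly higher in Tam-Idh1-KI mice by its brighter probe, within the spread of the mice. That probe had a lowest, median and highest level of 7.54, 8.02 and 8.67 in Tam-Idh1-KI and 7.48, 7.85 and 8.21 in control mice. The log2 difference was 0.21 (SE 0.11), a ratio of 1.16 with a 95% interval of 0.983 to 1.36, and 2 of 9 Tam-Idh1-KI mice lay under the control mean of their day. The 2 highest levels of all, 8.67 and 8.49, belonged to replicates 7 and 9 of Tam-Idh1-KI, both of the second day. On that day the means differed by 0.40, and on the first by 0.15.

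The dimmer *Sncaip* probe gave 5.76 ± 0.29 in Tam-Idh1-KI and 5.62 ± 0.31 in control mice (SD, n = 9 each) and a difference of 0.10 (SE 0.13). It was detected on 9 Tam-Idh1-KI and 7 control arrays. It did not follow the brighter probe from mouse to mouse (r = -0.07 after removal of genotype, day and sex), so that most of its variation is not shared with it.

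**Figure D1:**
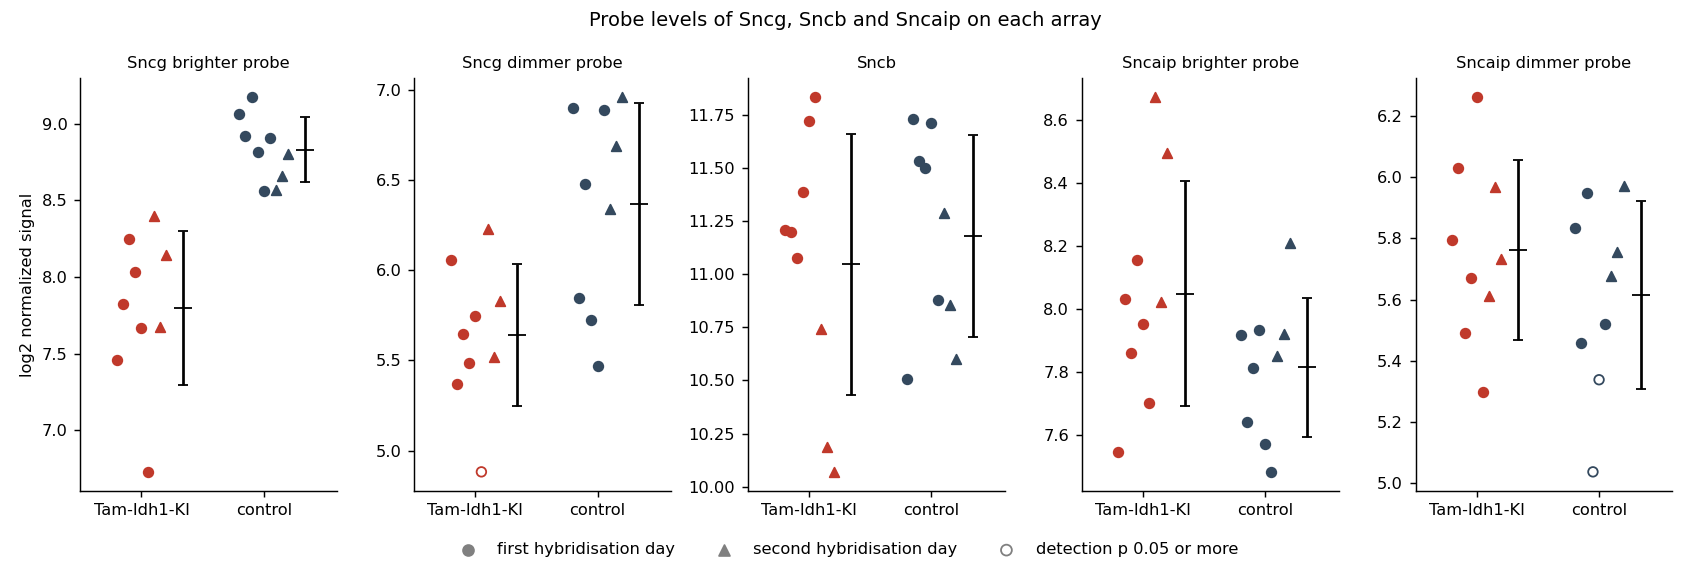
Log2 normalized signal of each probe of *Sncg*, *Sncb* and *Sncaip* on every array, with Tam-Idh1-KI mice left of controls, circles for the first and triangles for the second hybridisation day, open symbols for arrays with a detection p of 0.05 or more, and bars for the mean ± SD of 9 mice (each panel has its own axis). Only for the brighter *Sncg* probe do all Tam-Idh1-KI points, up to 8.40, lie below all control points, from 8.56.

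The choice of the genes did not use hybridisation day, sex or their interaction with genotype, so these were tested with limma over all 11465 genes with Benjamini-Hochberg adjustment. *Sncb* and *Sncaip* moved in opposite directions with day. *Sncb* was lower on the second day by both groups' means, 10.33 in Tam-Idh1-KI and 10.91 in control mice, against 11.40 in Tam-Idh1-KI and 11.31 in control mice on the first, with a coefficient of -0.66 (SE 0.21, adjusted p = 0.0092). *Sncaip* was higher on the second day, at 8.40 in Tam-Idh1-KI and 7.99 in control mice, against 7.88 in Tam-Idh1-KI and 7.73 in control mice on the first (coefficient 0.36, SE 0.12, adjusted p = 0.0144). *Sncg* had a coefficient of 0.02 (95% interval -0.38 to 0.43, adjusted p = 0.924). Day passed the threshold for 63.8% of all genes (27.1% lower, 36.8% higher), so 2 of 3 is near the background. Neither call held with age added to the model, where the coefficients were -0.80 for *Sncb* (adjusted p = 0.0981) and 0.27 for *Sncaip* (adjusted p = 0.333), or with median scaling, where they were -0.60 (adjusted p = 0.0525) and 0.29 (adjusted p = 0.12). Every mouse of the second day was older than every mouse of the first, so that age and day largely coincide.

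Sex left no detectable difference in any of the 3 genes. The male minus female coefficients were -0.20 for *Sncg*, 0.21 for *Sncb* and -0.12 for *Sncaip*, each with an adjusted p of 0.999, and 0.0262% of genes passed. Every 95% interval spanned 0, that of *Sncg* from -0.59 to 0.20. The genotype difference was not shown to vary between days. The interaction of genotype with day was 0.58 for *Sncg* (95% interval -0.21 to 1.37), -0.61 for *Sncb* (-1.45 to 0.24) and 0.20 for *Sncaip* (-0.31 to 0.71). By limma 0 of 11465 genes passed for this interaction, and 332 (2.9%) had an unadjusted p under 0.05. The interaction with sex was -0.26 for *Sncg*, -0.03 for *Sncb* and -0.21 for *Sncaip*, each with an adjusted p of 0.997 by limma (0.00872% of genes passed). The second day held no Tam-Idh1-KI males, so the interactions with day and with sex are not independent of each other.

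**Figure D2:**
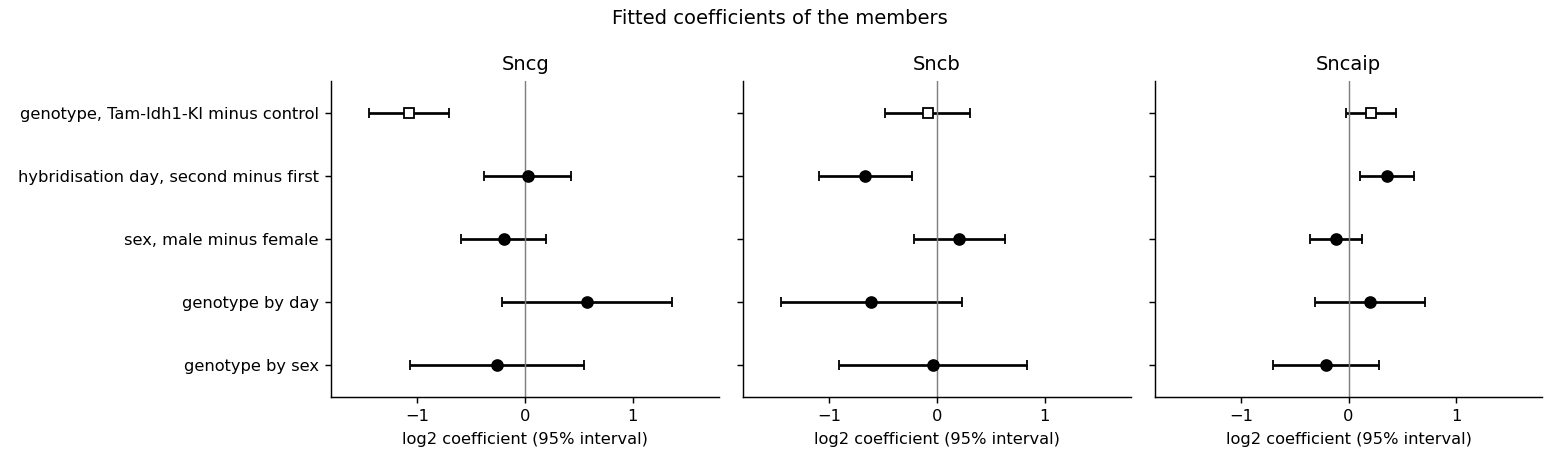
Coefficients of *Sncg*, *Sncb* and *Sncaip* on the log2 scale (x axis) with 95% intervals, for genotype (open squares, a description), hybridisation day, sex and both interactions (filled circles, tested). The day intervals of *Sncb* (-1.10 to -0.23) and *Sncaip* (0.11 to 0.61) leave out 0, and those of sex and of the interactions hold 0.

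Within groups, *Sncg* and *Sncaip* varied together. After genotype, day and sex had been removed, their brighter probes correlated over 18 mice at r = 0.63 and Spearman correlation = 0.72 (permutation test with 100000 resamples, two-sided, p = 0.00386 and 0.00096, adjusted over the 3 pairs 0.0116 and 0.00288). Without the 2 arrays farthest from the median of *Sncg* (Tam-Idh1-KI replicates 6 and 3) r was 0.78. It was 0.51 among the 12 mice of the first day and 0.92 among the 6 of the second, and 0.67 within Tam-Idh1-KI and 0.58 within control mice. The sign of this covariation is opposite to that of the genotype differences, where *Sncg* was lower and *Sncaip* was not. *Sncg* and *Sncb* gave r = -0.42 and Spearman correlation = -0.42 (permutation p = 0.0821 and 0.0885, adjusted 0.123 and 0.133), and r = -0.26 without the 2 farthest arrays. *Sncb* and *Sncaip* gave r = -0.12 and Spearman correlation = -0.12 (permutation p = 0.635 and 0.634, adjusted 0.635 and 0.634), and r = -0.16 without the 2 farthest arrays. All such values share the normalization of the array they come from.

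*Sncg* also varied with the markers of neurons, in opposite directions for different kinds of neuron. The mean of 10 neuron markers, such as *Rbfox3*, *Syt1* and *Elavl4*, was correlated with *Sncg* at r = -0.86 and Spearman correlation = -0.78 after removal of genotype, day and sex (permutation p = 3e-05 and 0.00023, adjusted over the 48 combinations of gene and marker list 0.00144 and 0.00624). The correlation was -0.70 without the 2 farthest arrays, -0.85 within the first day and -0.90 within the second. Cortical and septal neuron markers, which share *Slc17a7* and *Camk2a* with that list, gave a value of the same sign (r = -0.78, Spearman correlation = -0.67, permutation, adjusted p = 0.00192 and 0.0214). Here r was -0.67 without the 2 farthest arrays, -0.79 and -0.78 by day and -0.57 with median scaling. *Slc17a7* varied most of the 10 neuron markers (SE of its group difference 0.57, next *Meg3* with 0.21). It therefore weighs most in their mean, and the 2 correlations are not independent. Markers of striatal projection neurons, the main neurons of the tissue beside the SVZ, gave the opposite sign (r = 0.79, Spearman correlation = 0.74, permutation, adjusted p = 0.00192 and 0.00804; r = 0.72 without the 2 farthest arrays, 0.79 on each day and with median scaling). *Sncg* was also high where ependymal (r = 0.72) and astrocyte markers (r = 0.62) were high, by both measures (permutation, adjusted p = 0.00904 and 0.0248 for r, 0.0294 and 0.0119 for Spearman correlation). Without the 2 farthest arrays r was 0.50 and 0.60. Oligodendrocyte markers gave r = 0.74 and Spearman correlation = 0.54, of which only r passed (permutation, adjusted p = 0.00701 and 0.0674). That r was 0.44 without the 2 farthest arrays, and 0.88 and 0.03 by day. Neural stem cell (0.76) and microglia and macrophage markers (0.67) passed by Spearman correlation only (permutation, adjusted p = 0.00624 and 0.021). Their r were 0.53 and 0.48 (permutation, adjusted p = 0.0731 and 0.106). Cck and Vip interneuron markers passed by r only (r = -0.57, Spearman correlation = -0.43, permutation, adjusted p = 0.0455 and 0.177). Here r was -0.35 without the 2 farthest arrays. No other scaling was run for these lists. *Sncaip* was also high where neuron markers were low (r = -0.66, Spearman correlation = -0.76, permutation, adjusted p = 0.0161 and 0.00624). That r was -0.65 without the 2 farthest arrays and -0.52 and -0.89 by day, although only -0.19 with median scaling. *Sncaip* also passed by both measures with neuroblast (r = 0.65), neural stem cell (0.63) and ependymal markers (0.60). The permutation test gave adjusted p = 0.0235, 0.0235 and 0.0315 for r, and 0.0294, 0.0305 and 0.0305 for Spearman correlation. Without the 2 farthest arrays these r were 0.54, 0.41 and 0.52, and no other scaling was run for them. They were 0.62, 0.44 and 0.29 on the first day and 0.70, 0.92 and 0.99 on the second. Within Tam-Idh1-KI they were 0.72, 0.94 and 0.54, and within control mice 0.53, -0.02 and 0.74. The neural stem cell value was thus not seen among controls. *Sncb* gave its strongest value with astrocyte markers (r = -0.72, Spearman correlation = -0.71, permutation, adjusted p = 0.00684 and 0.0119). That r was -0.61 without the 2 farthest arrays and -0.80 and -0.50 by day, but turned to 0.14 with median scaling. With striatal projection neuron markers *Sncb* gave r = -0.63 and Spearman correlation = -0.63 (permutation, adjusted p = 0.0248 and 0.0294). Without the 2 farthest arrays that r was -0.51, and no other scaling was run for it. 

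Between the groups, beside 54.5% of all genes at a positive difference, 9 of 10 neuron markers were at a negative one. Their median was -0.07, and 0 passed the threshold. The mean of the list ran from 11.65 to 12.52 in Tam-Idh1-KI and from 11.94 to 12.35 in control mice. The cortical and septal neuron markers had more negative values, with 7 of 9 at a negative difference and a median of -0.58, although 0 passed the threshold. Their mean ran from 8.60 to 9.93 in Tam-Idh1-KI and from 9.35 to 10.17 in control mice. *Slc17a7*, the vesicular glutamate transporter of cortical neurons, averaged 9.77 ± 1.83 in Tam-Idh1-KI and 10.91 ± 0.99 in control mice (SD, n = 9 each; difference -1.14, SE 0.57, limma adjusted p = 0.558), and the groups overlapped. *Zic2*, a transcription factor gene of the septum, was at -0.83 (SE 0.35, adjusted p = 0.47). The striatal projection neuron markers were at a negative difference in 7 of 10 cases, with a median of -0.07. With the mean of a list as a further covariate, an alternative added after the data were seen, the *Sncg* difference was -1.41 for the neuron, -1.52 for the cortical and septal and -0.98 for the striatal list, against -1.08 without any. *Sncb* was at 0.05 and *Sncaip* at 0.06 with the neuron list, at 0.02 and 0.03 with the cortical and septal list, and at -0.17 and 0.24 with the striatal list. Among cells known to hold γ-synuclein, 8 of 8 measured markers of cholinergic neurons were tested, with a median of -0.0014. *Zic4*, a transcription factor of the septum in that list, was at -0.51 (SE 0.23, adjusted p = 0.504). Of the 9 markers of Cck and Vip interneurons 6 were tested, with a median of 0.06, and they lay on both sides of 0. *Calb2*, the calretinin gene, was at 0.78 (SE 0.23, adjusted p = 0.232), whereas the neuropeptide gene *Cck* was at -0.49 (SE 0.60, adjusted p = 0.879). Other lists also leaned to one side, beside 54.5% of all genes at a positive difference. Positive were 8 of 9 neuroblast, 9 of 9 neural stem cell, 8 of 8 oligodendrocyte and 10 of 11 ependymal markers. So were 9 of 10 endothelial and 9 of 10 microglia and macrophage markers, while 4 of 4 erythroid markers were negative. None of the 129 markers tested passed the threshold of the limma fit, 25 (19.4%, against 9.57% of all genes) had an unadjusted p under 0.05, 19 higher and 6 lower, and the smallest adjusted p was 0.0713 (*Spag6l*, an ependymal gene, at 0.46). The fits with the 3 covariates give only the refitted difference, and the part of these cells in the *Sncg* difference was not tested.

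**Figure D3:**
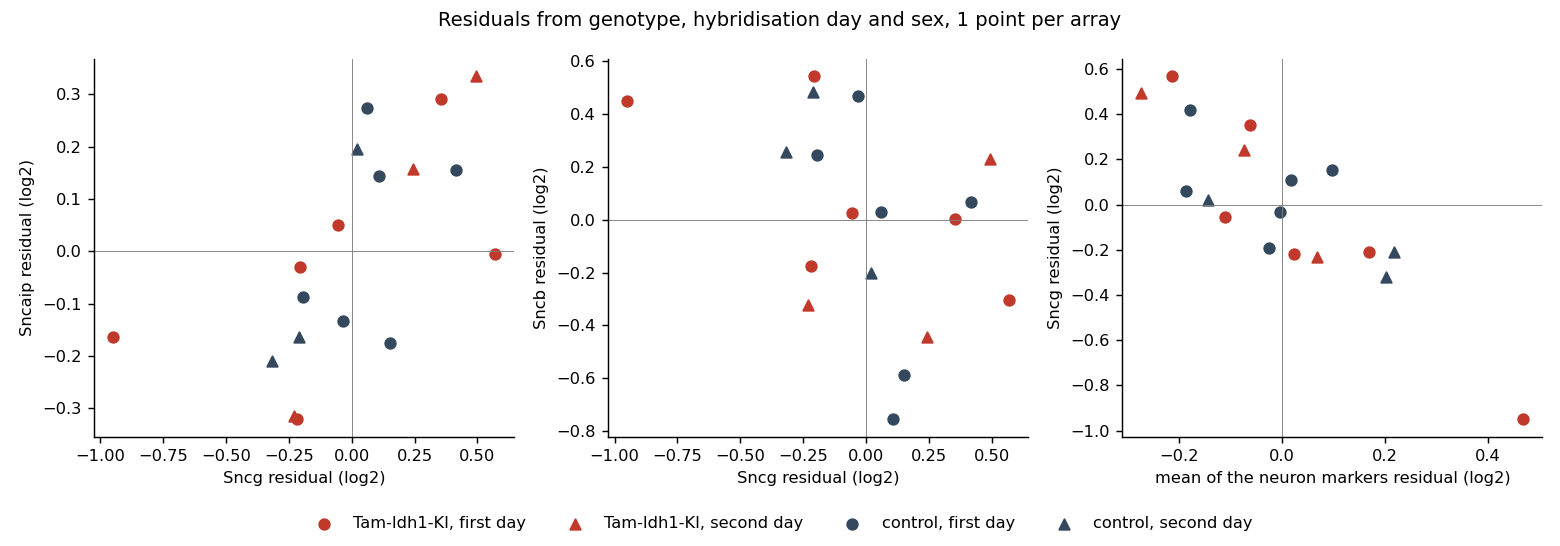
Residuals of the members on each array after removal of genotype, hybridisation day and sex, in log2 units: *Sncaip* (y axis) against *Sncg* (x axis, r = 0.63), *Sncb* against *Sncg* (r = -0.42) and *Sncg* against the mean of 10 neuron markers (r = -0.86). Each point is 1 mouse, red for Tam-Idh1-KI and dark for control, with a circle for the first and a triangle for the second day, and the *Sncg* residual of Tam-Idh1-KI replicate 6 is the lowest.

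The genes most like each member were found by the same correlation over 18 arrays, among the 11462 other genes tested. For *Sncg* they were *Rem2*, a small GTPase that restrains calcium channels (r = 0.89), *Plekhg3*, a guanine nucleotide exchange factor (0.88), *Plekhb1*, a membrane protein with a pleckstrin homology domain (0.88), and *Ebf1*, a transcription factor of striatal neurons (0.86). *Gabra3*, a GABA receptor subunit, and *Ccdc32* ran most opposite to it (both -0.90). None of these 6 genes passed the test between the groups: *Rem2* was at -0.02 (SE 0.12), *Ebf1* at -0.17 (SE 0.12) and *Gabra3* at -0.06 (SE 0.20), and the smallest adjusted p of the 6 was 0.706. A value over 0.7 was found with *Sncg* for 168 genes (1.47%) and one under -0.7 for 187 (1.63%), so that the named genes stand at the end of a broad pattern.

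The genes most like *Sncb* were *Arhgap44*, a GTPase activator (r = 0.91), *Diras1*, a Ras-like GTPase (0.90), *Pip4k2c*, a phosphoinositide kinase (0.90), and *Dnajc6*, the auxilin that uncoats clathrin vesicles and a gene of inherited parkinsonism (0.89). *Ngef*, a guanine nucleotide exchange factor of neurons, and *Plod2*, a collagen lysyl hydroxylase, ran most opposite (both -0.82). Those most like *Sncaip* were *Lmnb1*, the lamin B1 gene (0.87), *Htr5b*, a serotonin receptor (0.86), *H3f3b*, a gene of histone H3.3 (0.86), and *Ncf4*, a subunit of the phagocyte NADPH oxidase (0.85). *Upp2*, a uridine phosphorylase (-0.85), and *Rasgrf1*, a Ras exchange factor of neurons (-0.83), ran most opposite.

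Of these 18 genes only *Htr5b* passed the threshold between the groups. It was higher in Tam-Idh1-KI mice, at 9.11 ± 0.63 against 7.71 ± 0.30 in control mice (SD), with a log2 difference of 1.36 (SE 0.22, limma, adjusted p = 0.0194). *Lmnb1*, at 0.29 (SE 0.12, adjusted p = 0.472), did not pass.

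Genes in the lists around the synucleins and synphilin-1 showed no called change. Over all 11465 genes limma called 20 (0.174%), 11 higher (0.0959%) and 9 lower (0.0785%). With median scaling it called 16 higher and 7 lower, with cyclic loess 6 higher and 8 lower, and with the replicate number as a block 3 higher and 5 lower. Of 86 such genes tested, 0 were called, while 1 was higher and 5 were lower at an unadjusted p under 0.05 (6.98% of them, beside 9.57% of all genes, 6.43% higher and 3.14% lower). The median difference of the 86 was -0.05 and that of all genes 0.01, and 37.2% of the 86 were positive, beside 54.5% of all genes.

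The lean to lower values lay mainly in the presynaptic list of SNARE and vesicle genes, which serve transmitter release. Of its 24 tested genes 20 were lower and 4 higher in Tam-Idh1-KI mice, with a median of -0.14 and a range from -0.36 to 0.06. *Vamp2*, the vesicle SNARE of fast release, had 12.85 ± 0.14 in Tam-Idh1-KI and 13.07 ± 0.27 in control mice (SD, n = 9 each) and a difference of -0.20 (SE 0.07, limma, adjusted p = 0.399). *Rab3c*, a GTPase of synaptic vesicles, was at -0.33 (SE 0.12, adjusted p = 0.369), *Pclo*, the active zone scaffold piccolo, at -0.36 (SE 0.15, adjusted p = 0.447), and *Sv2c*, a vesicle glycoprotein, at -0.30 (SE 0.14, adjusted p = 0.508). None of them passed. How far the lower values follow the neuronal content of the samples was not tested.

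The partners of synphilin-1 were measured with 9 genes, of which 4 were positive and 5 negative, with a median of -0.02. *Uchl1*, a neuronal deubiquitinase, had 12.03 ± 0.32 in Tam-Idh1-KI and 12.22 ± 0.34 in control mice (SD, n = 9 each) and a difference of -0.20 (SE 0.07, adjusted p = 0.368 by limma). The Siah ligases that target synphilin-1 were at 0.12 (*Siah1b*, SE 0.09) and 0.08 (*Siah1a*, SE 0.09), and *Usp9x*, a deubiquitinase, at -0.14 (SE 0.11). Among 9 kinases that phosphorylate synucleins the median was 0.02, with *Grk5* at -0.25 (SE 0.13), *Grk6* at -0.33 (SE 0.17), both receptor kinases, *Csnk1e* of the casein kinases at 0.14 (SE 0.08) and *Plk1*, a polo-like kinase of mitosis, at 0.28 (SE 0.17).

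Among 18 chaperones and proteases of synucleins 9 were positive and 9 negative, with a median of 0.0043. *Hspb1*, a small heat shock protein that hinders aggregation, had 8.12 ± 0.56 in Tam-Idh1-KI and 7.68 ± 0.52 in control mice (SD, n = 9 each) and a difference of 0.53 (SE 0.23, adjusted p = 0.473 by limma). *Klk6*, a secreted protease of oligodendrocytes that cleaves synucleins, was at 0.73 (SE 0.39), the co-chaperone gene *Dnajb6* at -0.12 (SE 0.08) and the calpain gene *Capn2* at -0.13 (SE 0.09). The other genes of inherited parkinsonism, 10 tested, had a median of -0.02, with *Vps13c* at -0.28 (SE 0.14), the mitochondrial protease gene *Htra2* at -0.12 (SE 0.08) and the phospholipase gene *Pla2g6* at 0.19 (SE 0.16). Of 8 genes of dopamine synthesis and transport 6 were lower and 2 higher, with a median of -0.10. Their lowest unadjusted p, 0.186, belonged to the transporter gene *Slc6a3*, at -0.24 (SE 0.18). The axonal cytoskeleton genes, 8 tested, had a median of -0.05, with the neurofilament gene *Nefm* at -0.13 (SE 0.09).

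**Figure D4:**
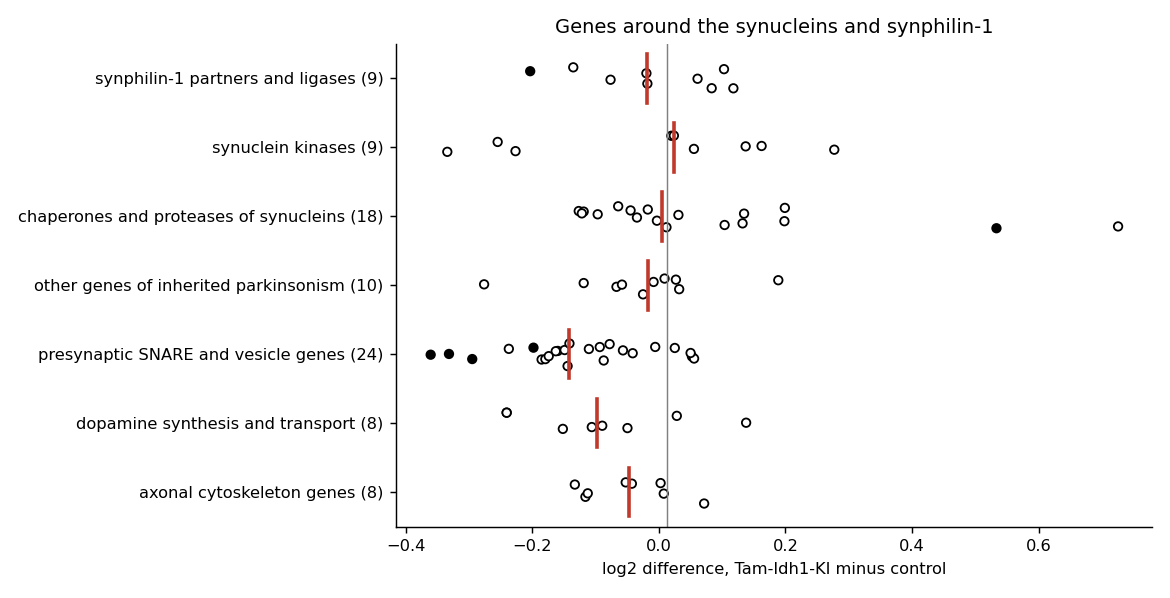
Log2 difference of Tam-Idh1-KI minus control (x axis) of each tested gene in 7 lists around the synucleins and synphilin-1, with the number of genes in brackets, filled points for an unadjusted p under 0.05, red bars for the list medians and a grey line for the median of all genes (0.01). In the presynaptic list 20 of 24 points lie below 0, and its median is -0.14.

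The neighbours of the members on the chromosome were read as a comparison, taking the 2 nearest protein-coding genes on each side in RefSeq order, outside the rule for named genes. Of 12 such genes 6 could be tested and 0 passed. Beside *Sncg*, *Glud1*, the glutamate dehydrogenase gene, was at 0.03 (SE 0.05), *Bmpr1a*, a BMP receptor gene, at 0.0094 (SE 0.09), *Mmrn2*, an endothelial matrix gene that adjoins *Sncg*, at 0.22 (SE 0.21) and *Fam25c*, on its other side, at 0.53 (SE 0.14, limma, adjusted p = 0.17). All 4 values were above 0, beside 54.5% of all genes. *Fam25c* had means of 5.59 in Tam-Idh1-KI and 5.10 in control mice, as low as the dimmer member probes near background.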

How the data were processed

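RNA from the SVZ of 9 Tam-Idh1-KI mice and 9 controls was read on Illumina Mouse WG6-v2 arrays. The authors deposited bead signals, an intensity per probe without normalization, and a detection p-value per probe against negative control beads. A second deposited table holds log2 values that the authors processed from the same arrays by a normalization not given in the sources used here. These rise with the signal on every array (medians 6.22 to 6.30) and served as an alternative. The submitters' processing notes name GenomeStudio.

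Signals were normalized with neqc of limma 3.58.1 in R 4.3.3 (background from detection p-values, offset 16, quantile, log2). A probe was kept where its detection p-value was under 0.05 on 9 arrays or more, and the brightest kept probe with 1 symbol stood for each of 11465 genes. Of the probes 34885 have 1 symbol, 18 several and 10378 none. The limma model held genotype, day and sex for the 18 arrays. P-values were adjusted by Benjamini-Hochberg over all genes (threshold 0.05), and intervals are at 95%. The number of arrays limits the precision, and the p-values of the fits rest on the variation between mice. With only a first and a second hybridisation day, those of the day coefficient do not reflect variation between days.

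The 3 genes, the 24 gene lists and the alternatives were chosen with earlier results of these data known. The text names every member probe, up to 4 genes with the smallest p in each list described and any past the threshold, and for each member the 4 genes with the highest and the 2 with the lowest correlation of residuals. Correlations used 100000 permutations. Other settings of background, scaling, filter, probe choice, covariates and array weights, single days, the methods' t-test and the loss of each array were tried.

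Mice carry numbers 1 to 9 in each group. The labels name no litters, and the study's methods describe paired littermates. Deviations from the group means of same-numbered arrays correlated over 0.1 in 9 of 9 pairs (mean 0.481), but same numbers share the hybridisation day, and with day removed in 4 of 9 (mean 0.05). Sequences came from the RefSeq table of GRCm38.p6. Columns of samples left unused: 0.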

Additional observations from a re-analysis of the deposited data

How the results depend on the processing

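The brighter *Sncg* probe stayed lower in Tam-Idh1-KI mice under all alternatives run, at -1.52 to -0.60, with the smallest size, -0.60, on the second hybridisation day only, which holds 6 arrays; with the replicate block it was -1.15. The dimmer probe ranged from -0.89 to -0.28. *Sncb* ranged from -0.58 to 0.09 and was positive with median scaling (0.02), on the first day only (0.09) and with the neuron (0.05) or the cortical and septal (0.02) marker score as a covariate. The brighter *Sncaip* probe ranged from 0.03 to 0.40 and the dimmer from -0.03 to 0.23. Leaving out each array in turn gave -1.17 to -0.91 and -0.85 to -0.61 for the *Sncg* probes, -0.25 to 0.02 for *Sncb*, and 0.16 to 0.26 and 0.04 to 0.15 for the *Sncaip* probes.

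The 20 genes called over all genes became 8 with no covariates, 8 with the replicate block, 4 on the first day only, 0 on the second day only by limma (947 at an unadjusted p under 0.05, and 3 over both days by the methods' t-test after adjustment), 61 with array weights 6 with the neuron and 4 with the cortical and septal marker score. The methods' t-test called 538 at an unadjusted p under 0.05. Without each array in turn the count was 4 to 37, with 37 without Tam-Idh1-KI replicate 6, 8 without its replicates 3 or 4, 10 and 12 without its replicates 2 and 9, 4 without control replicates 1 or 8, and 6, 8, 12 and 13 without control replicates 2, 5, 6 and 7. No gene of the 7 lists around the members was called under any alternative. Of the markers, 1 was called without background correction, in the authors' processed values, with day only and with array weights (*Spag6l* of ependymal cells, higher), 1 with the neuron (*Mia*) and 1 with the striatal marker score (*Spag6l*), and 0 to 1 without single arrays. The replicate block was fitted for the differences and the counts of called genes, where it changed no other call, and not for the coefficients and correlations.

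The day coefficient lost its call for *Sncb* with median scaling (-0.60) and age added (-0.80), and for *Sncaip* with median scaling (0.29), the authors' processed values (0.24), the mean of the kept probes (0.22), age added (0.27) and without control replicate 9 (0.30). Without single arrays these coefficients were -0.83 to -0.56 for *Sncb* and 0.29 to 0.42 for *Sncaip*. Coefficients that were not called also changed sign. That of *Sncg* for day was -0.0052 without background correction, -0.0073 with median scaling, -0.029 in the authors' values, -0.29 with age added, -0.058 with array weights and -0.072 to 0.089 without single arrays. *Sncg* by sex was 0.023 with array weights and -0.47 to 0.036 without single arrays. *Sncb* by sex was 0.0068 with median scaling, 0.010 in the authors' values and -0.27 to 0.29 without single arrays, and its sex coefficient was -0.014 to 0.34 without single arrays. *Sncaip* by day was -0.13 with the mean of the kept probes.

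The correlation of *Sncg* and *Sncaip* kept its call, at 0.58 to 0.70 under the alternatives and 0.55 to 0.70 without single arrays. That of *Sncg* and *Sncb* passed with the mean of the kept probes (-0.57, adjusted permutation p = 0.0219) and without Tam-Idh1-KI replicate 7 (-0.53 to -0.29 without single arrays, adjusted permutation p = 0.0411 to 0.377). With median scaling *Sncb* and *Sncaip* gave 0.32, *Sncb* and the astrocyte markers 0.14, and *Sncaip* and the neuron markers -0.19; the last was -0.41 with the mean of the kept probes. *Sncg* gave -0.86 to -0.53 with the neuron markers, -0.78 to -0.53 with the cortical and septal and 0.69 to 0.81 with the striatal markers under the alternatives. The alternatives for correlations and the marker scores were added after the data were seen, and the causes of these changes were not tested. Both dimmer probes were undetected on some arrays, so their values lie near background.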
